A study of Homo sapiens with 18 samples.

Results

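Open chromatin at the starts of protein-coding genes was examined in Ccd18-Co, an established line of human colon fibroblasts. The regions described are the peaks of accessibility on autosomes whose centre lay within 1000 bp of the annotated start of any transcript of a protein-coding gene (GENCODE release 44, hg38), here called start peaks. There were 38735 start peaks among 334857 peaks, or 11.6%. All the rest are called other peaks, including those not on autosomes and any at starts of non-coding genes. Accessibility was measured by ATAC-seq, in which a transposase cuts open DNA and leaves sequencing adaptors behind, and each value is the number of fragments counted in a peak.

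The 18 libraries formed 3 groups of 6. Unstimulated cells received no cytokine. Both stimulated groups received 3 pulses of TNF, OSM and IL-17A (10 ng/ml each) with IL-1B (0.1 ng/ml), each pulse lasting 72 h with 96 h of recovery. After 1 week of rest they were given DMSO, the solvent, or 250 nM belinostat, an inhibitor of histone deacetylases, for 5 days, and were collected 2 weeks later. The labels give these doses, from which the study's text departs in places. Below, the cytokine contrast sets DMSO against unstimulated libraries, the belinostat contrast sets belinostat against DMSO, and the residual contrast sets belinostat against unstimulated libraries. The first and second share the DMSO libraries. No group of unstimulated cells with DMSO or belinostat was analysed here, so the solvent and the pulses cannot be told apart in the cytokine contrast. All libraries came from this single line, and nothing states that replicates were separate cultures. P-values therefore measure the spread between these libraries, which may be technical. In bulk libraries, fewer cells with an open site and a less open site in every cell cannot be told apart.

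A gene's start is where RNA polymerase assembles with the general transcription factors, and the nucleosomes there are kept displaced, which makes starts among the most accessible stretches of the genome. Most starts of genes used in every cell lie in CpG islands, GC-rich stretches with many CpG dinucleotides that tend to be open in all tissues. Starts of tissue-restricted and inducible genes more often lack an island and carry a TATA box close to the start. Histone acetylation, which deacetylases remove and belinostat preserves, accompanies open starts.

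The sequences of 4 canonical starts are shown first because start peaks near them had large and well supported changes in the cytokine or belinostat contrast. A canonical start is that of the transcript Ensembl picks to stand for a gene. Each sequence is the 100 bases before the start, read 5′ to 3′ on the strand of the gene in hg38. Capitals mark matches on either strand. The words searched and shown were the TATA box, written TATAAA, the E-box bound by helix-loop-helix factors, written CANNTG, the CCAAT box, the STAT word, written TTCNNNGAA, and the NF-kB word. GBP6 was printed by the rule for naming peaks, and PTGS2, HSD11B1 and CXCL5 were added after their values were seen. The centre of the GBP6 peak lay upstream of the bases printed for that gene.
PTGS2, chr1:186680424-186680523, minus strand: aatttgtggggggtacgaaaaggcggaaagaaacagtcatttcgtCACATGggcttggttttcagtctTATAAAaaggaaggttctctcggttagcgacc
HSD11B1, chr1:209704746-209704845, plus strand: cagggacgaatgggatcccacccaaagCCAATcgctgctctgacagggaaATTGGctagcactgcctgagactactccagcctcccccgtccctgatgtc
CXCL5, chr4:73998678-73998777, minus strand: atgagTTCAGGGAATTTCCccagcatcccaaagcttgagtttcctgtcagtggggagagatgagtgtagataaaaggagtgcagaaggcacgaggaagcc
GBP6, chr1:89363959-89364058, plus strand: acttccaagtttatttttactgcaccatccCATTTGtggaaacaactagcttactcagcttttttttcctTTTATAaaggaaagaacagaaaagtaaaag

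PTGS2 and GBP6 hold a TATA box close to the start, HSD11B1 holds CCAAT on each strand, and in CXCL5 a STAT match overlaps an NF-kB match. In windows of 250 bases before to 50 after the start, TATAAA was found at 9.76% of 19040 starts of protein-coding genes, CCAAT at 35.7%, CANNTG at 63.6%, TTCNNNGAA at 6.62% and the NF-kB word at 2.01%. A match describes letters and is no evidence of binding.

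The table's counts per library summed to between 4661678 and 11352032, and belinostat libraries were the shallowest group. As a check of the labelled cell type, the start peaks of 12 fibroblast marker genes (collagens, VIM, PDGFRA and others) summed to 386 to 449 CPM (counts scaled to library size) in unstimulated libraries. Epithelial markers summed to 32.8 to 40.7 over 7 peaks, immune cell markers to 51.5 to 59.9 over 8, endothelial markers to 20.8 to 24.4 over 7, and neural and glial markers to 26.1 to 34.9 over 5. A count of 0 in at least 1 library was found for 4720 start peaks. Unstimulated 6 had 4.95% of start peaks at 0, against 0.305% to 1.71% in the rest of its group.

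Start peaks were wider, stronger and richer in CpG than other peaks. Their median width was 418 bp, against 266 bp elsewhere, and 21.9% were 1 kb or wider, against 2.17%. Their median level was 1.61 on the log2 CPM scale, against 0.13, and their median GC content was 59.2%, against 49.3%. Of the 10000 strongest peaks, 6493 were start peaks. A start peak was found for 16825 of 19103 gene symbols (88.1%). Of these genes 6772 had 1 start peak and 10053 had more, with the most (31) at EHMT1, a histone methyltransferase with many annotated transcripts.

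Start peaks fell into distinct kinds. CpG-rich starts, with over 50% GC and an observed over expected CpG ratio over 0.6 in the window around the start, made up 17454 (45.1%), with a median log2 CPM of 3.62 and a median width of 895 bp. The 21281 CpG-poor starts had a median log2 CPM of 0.44 and a width of 290 bp. A similar line ran between 19627 peaks within 1000 bp of a canonical start (log2 CPM 3.34, 810 bp) and 19108 peaks near starts of other transcripts only (0.46, 287 bp), many of which are short weak peaks inside genes. Peaks with starts on both strands, as at divergent gene pairs, numbered 2149 and were stronger still, at 4.33. Membership had no sharp edge: peaks centred 900 to 1000 bp from a start (1842) had a median log2 CPM of 0.50 and those at 1000 to 1100 bp (1594) had 0.48.

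Per kilobase of peak, the highest level in unstimulated cells was that of FBXO24 and LRCH4 (log2 CPM per kb of 7.62), followed by SP4 (7.45), a GC-box binding factor, and KMT5C (7.42), a histone H4 methyltransferase. KCTD9 with CDCA2 (7.38) and KHSRP (7.35), an RNA-binding protein, came next. The SD of these peaks over the 6 libraries was 0.10 to 0.16 in log2 CPM, so that neighbours from SP4 down did not differ beyond their spread.

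The share of each library's counts that fell in start peaks was measured because it needs no scaling between libraries. It was between 37.9% and 40.4% in unstimulated libraries (39.0% ± 0.86, SD, n = 6), between 35.3% and 38.2% with DMSO (36.2% ± 1.10) and between 33.5% and 38.5% with belinostat (35.2% ± 1.85). The highest DMSO library (replicate 3) lay among the unstimulated libraries, and so did the highest belinostat library (replicate 1). Without DMSO 3 the DMSO mean was 35.7%, and without belinostat 1 the belinostat mean was 34.6%. The CpG-rich starts carried the difference, with means of 31.3%, 28.4% and 27.5%. CpG-poor starts held 7.74% to 7.83% in all 18 libraries. Strong other peaks moved in the same way. The start peaks among the 10000 strongest held 25.1%, 22.6% and 21.3% of counts in the respective groups. The other peaks among them held 11.7%, 10.5% and 9.54%.

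**Figure D1:**
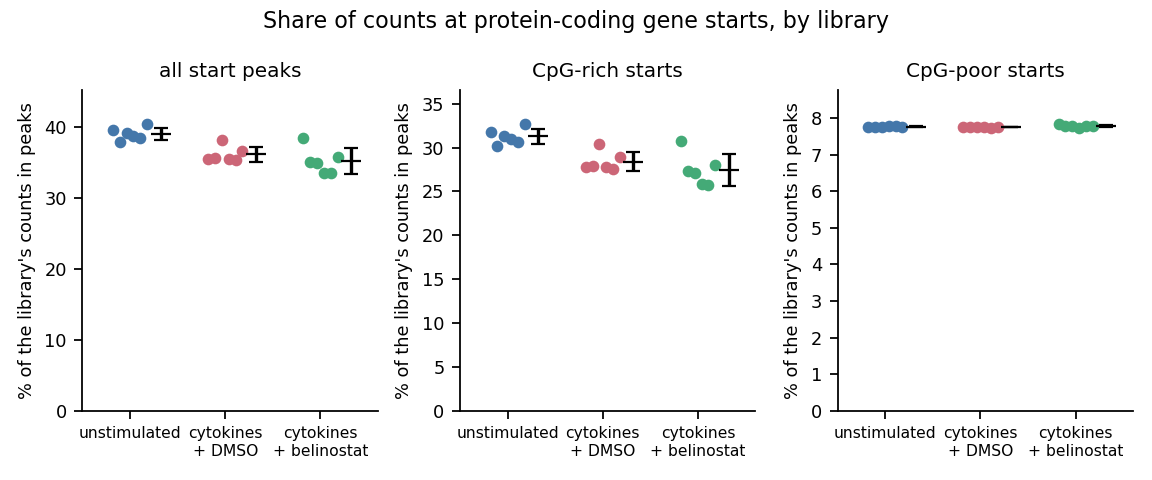
Percent of each library's counts in peaks that lay in start peaks (left), CpG-rich starts (middle) and CpG-poor starts (right), with 1 point per library and the mean ± SD of 6 libraries beside each group. CpG-rich starts ranged from 25.8% to 32.6% over the libraries, while CpG-poor starts stayed between 7.74% and 7.83%.

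The cytokine contrast asked what the pulses left at gene starts 2 weeks after the last treatment. With libraries scaled by TMM (trimmed mean of M values, 1 factor per library), start peaks fell on balance: 11286 of 38735 were called closed (29.1%) and 2309 opened (5.96%) by edgeR at an adjusted p under 0.05. Over all peaks, 9.73% were closed and 9.51% opened. The median log2 fold change was -0.21 for start peaks and 0.18 for other peaks. These counts rested on the scaling. With loess offsets, which remove each library's trend with peak strength, 391 start peaks were closed (1.01%, against 1.72% of all peaks) and 897 opened (2.32%, against 2.44%). With offsets for strength and GC content together, 585 were closed (1.51%, against 1.15% of all peaks) and 571 opened (1.47%, against 2.18%). Opened peaks made up 17.0% of the start peaks called with TMM, 69.6% with loess, 49.4% with loess and GC, 56.7% with library totals and 2.35% with TMM over the weaker 50% of peaks.

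The median of all peaks moved with the scaling. It was 0.13 with TMM, -0.29 with TMM over the weaker 50% of peaks and 0.34 when library totals were used. The median of start peaks minus that of all peaks was -0.34 with TMM, -0.35 with the weaker peaks and -0.33 when totals were used, but -0.03 with loess and -0.09 with loess and GC. The calls also leaned on single libraries. Without unstimulated 6 the closed share was 17.8% and the opened share 3.47%, and without unstimulated 1 they were 19.2% and 3.93%. Without DMSO 4 the opened share was 3.76%.

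At matched strength, the median change of start peaks was close to that of other peaks, but the shares called differed. Among peaks with an average log2 CPM over 5 the median cytokine change was -0.37 for 3145 start peaks and -0.37 for 1107 other peaks with TMM, and 0.04 for both with loess. In the weakest bin, at or under 0, it was 0.50 for start peaks and 0.55 for others with TMM. With TMM, 81.3% of start peaks between log2 CPM 4 and 5 were closed, against 72.1% of other peaks. Over 5 the shares were 95.2% and 85.9%. With loess offsets the order was reversed, at 0.775% and 6.99% between 4 and 5 and 0.382% and 3.97% over 5. Opened over 5 with loess were 3.12% of start peaks and 9.12% of other peaks. The calls by kind of start followed strength only in part. With TMM, 51.6% of CpG-rich starts were closed and 1.35% opened, of CpG-poor starts 10.7% and 9.75%. At log2 CPM 1 to 2, 1.33% of CpG-rich and 7.50% of CpG-poor starts opened, while 7.77% and 7.53% closed. At 4 to 5, 83.6% and 69.7% closed. Of peaks at canonical starts 46.9% were closed, and of peaks with starts on both strands 64.5%, each with a median change between -0.32 and -0.35. With loess offsets the medians of these kinds lay between -0.00 and 0.06.

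**Figure D2:**
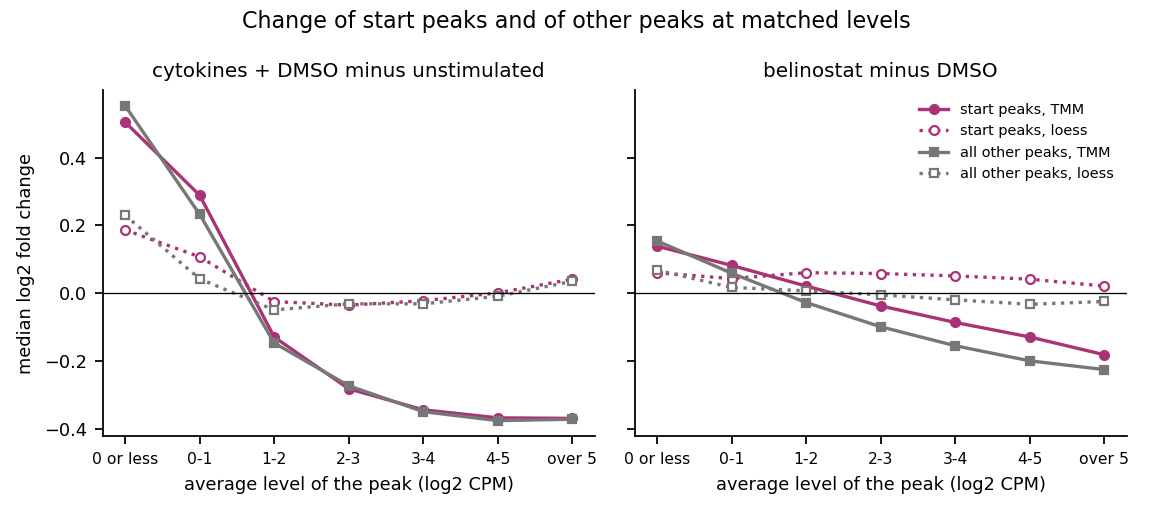
Median log2 fold change (y) in bins of average log2 CPM (x) for start peaks (circles) and all other peaks (squares), with TMM (filled) or loess offsets (open), for the cytokine contrast (left) and the belinostat contrast (right). In the cytokine contrast the lines of start peaks and other peaks run together and reach -0.37 in the strongest bin with TMM, while in the belinostat contrast other peaks above log2 CPM 0 lie below start peaks of the same strength.

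Start peaks called in the same direction with TMM, loess, and loess with GC offsets were few. There were 389 opened (1.00% of start peaks, against 1.44% of other peaks) and 202 closed (0.52%, against 0.84%). Of the opened, 100 lay at canonical starts and 41 were CpG-rich. Of the closed, 88 lay at canonical starts and 71 were CpG-rich.

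PTGS2 had the largest opening among canonical starts that met the rule for named peaks. It encodes cyclooxygenase 2, the inducible enzyme of prostaglandin synthesis. The peak covered the start, 1071 bp wide, at chr1:186680002-186681072. Its log2 CPM ran from 3.00 to 3.52 (median 3.14) in unstimulated libraries, from 4.07 to 4.61 (median 4.43) with DMSO and from 3.88 to 4.35 (median 4.18) with belinostat. All stimulated libraries lay above all unstimulated ones, and the DMSO and belinostat libraries overlapped. The cytokine change was 1.22 ± 0.13 (log2 fold change, SE) at an edgeR adjusted p of 4.74e-14, and 1.57 with loess. The belinostat change was -0.25 ± 0.12 (adjusted p 0.275).

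HSD11B1, which regenerates active cortisol from cortisone inside cells, opened by the same amount. Its start peak (chr1:209704523-209704989) ranged from 2.82 to 3.49 (median 3.02) in unstimulated libraries, from 4.16 to 4.49 (median 4.28) with DMSO and from 3.51 to 4.00 (median 3.89) with belinostat. The 3 groups did not overlap, and belinostat libraries lay between the other groups. The cytokine change was 1.22 ± 0.13 (edgeR adjusted p 1.33e-13) and the belinostat change -0.51 ± 0.12 (adjusted p 0.00587), with loess 1.56 and -0.36. Without single libraries or with other scalings the belinostat call held in 26 of 27 fits.

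CXCL5, a chemokine for neutrophils and a marker of the inflammatory fibroblast (IF) state in the study, opened less. Its start peak (chr4:73998149-73999058) ranged from 1.52 to 2.08 (median 1.72) in unstimulated libraries, from 2.13 to 2.89 (median 2.43) with DMSO and from 2.32 to 3.00 (median 2.49) with belinostat. The stimulated libraries all lay above the unstimulated ones, and those with and without belinostat overlapped. The cytokine change was 0.74 ± 0.17 (edgeR adjusted p 0.00148, loess 0.97), and it passed in 26 of 27 alternative fits.

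CAMK1G, a calmodulin-dependent kinase, was the other canonical start among the 8 largest rises named by rule, at 1.22 ± 0.27 (adjusted p 0.000676), from a weak peak with a mean of 0.18 in unstimulated libraries. The other 5 lay at starts of other transcripts, 6883 bp or more from a canonical start. They belonged to MS4A7, a membrane protein of macrophages (1.33), INPP5E, a phosphatase of the primary cilium (1.31), the gene ENSG00000257524 (1.29), RPH3AL, an effector of Rab proteins (1.23), and RTF1, an elongation factor of RNA polymerase II (1.23). All 5 passed in 27 of 27 alternative fits. The compared groups did not overlap, which the rule for naming peaks required. With TMM and leaving aside start peaks under log2 CPM 1, 74 called peaks rose and 4325 fell without overlap between the groups. Of these, 63 and 125 were called in the same direction in all 3 scalings.

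None of the 8 largest cytokine falls named by rule lay at a canonical start. CFAP221, a protein of motile cilia, fell by 1.14 on the log2 scale, DHRS3, a retinaldehyde reductase, by 1.10, and the start shared by RTF2 and FAM209A by 1.05. EPM2A (laforin, -1.05), STING1, the sensor of cyclic dinucleotides (-1.02), PRKCE, a protein kinase C (-1.02), the small GTPase RALA (-0.997) and MYL4, a myosin light chain (-0.997) followed. All 8 passed in 27 of 27 alternative fits. DHRS3 and PRKCE rose in the belinostat contrast, by 0.85 ± 0.24 (edgeR adjusted p 0.0279) and 0.73 ± 0.18 (adjusted p 0.00638). The DMSO and belinostat libraries of both overlapped, and the rises passed in 20 and 22 of 27 alternative fits.

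**Figure D3:**
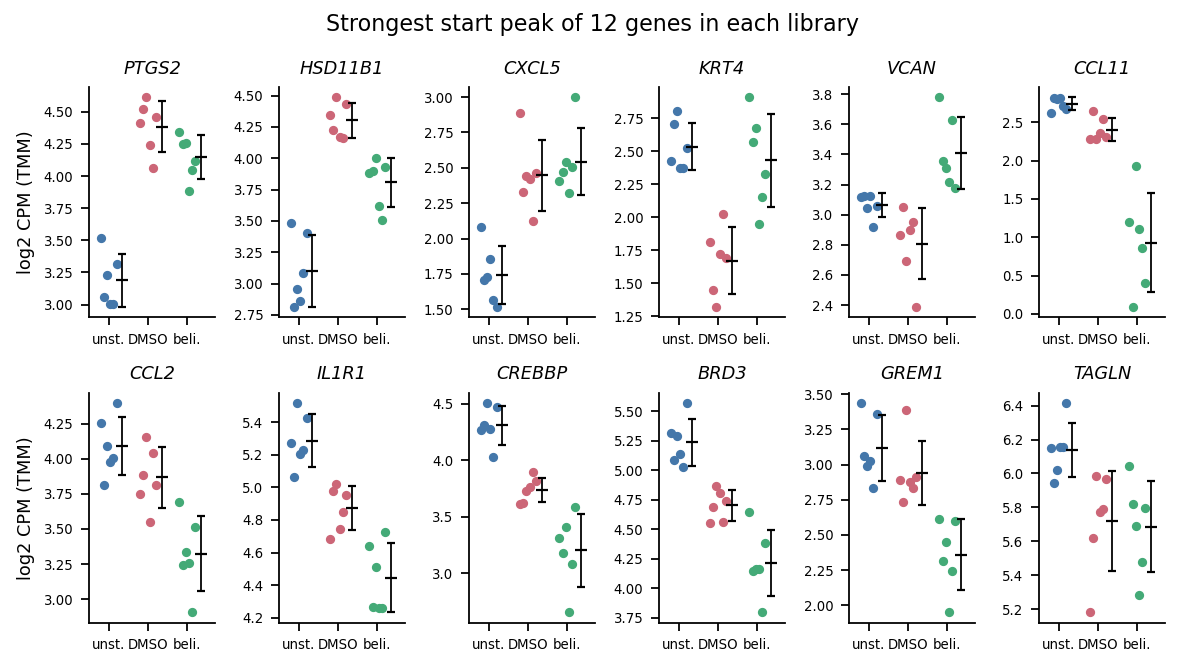
Log2 CPM with TMM scaling (y, a log scale with its own range in each panel) of 12 start peaks in each unstimulated (unst.), DMSO and belinostat (beli.) library, with the mean ± SD of 6 libraries. PTGS2, HSD11B1 and CXCL5 lie higher in all DMSO libraries than in all unstimulated ones, KRT4 dips with DMSO alone, and CCL11 is lowest with belinostat.

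Each gene of the lists below was represented by its strongest start peak, which need not lie at the canonical start. With the peak nearest the canonical start, some TMM counts differed. After cytokines, 7 keratin starts of 62 opened and 4 closed, instead of 12 and 5 of 61, and 3 instead of 2 IF markers closed. With belinostat 0 IF markers and 0 cytokine receptors and adaptors closed, instead of 1 each. Over all 15081 strongest peaks, the cytokine contrast with TMM closed 8438 (56.0%) and opened 450 (2.98%), with a median of -0.33. With loess it closed 105 and opened 406, with a median of 0.02. Lists of genes used in every cell had medians close to these and larger shares closed with TMM. Ribosomal protein genes were closed at 66 of 79 starts with TMM (83.5%, median -0.37) and at 0 with loess (0.01). Proteasome genes were closed at 36 of 46 (-0.35), and only PSMD1 among them, at a start 36285 bp from the canonical one, was also closed with loess (-0.24, adjusted p 0.00969). Respiratory complex I genes were closed at 25 of 35, cell cycle and senescence genes at 23 of 26, and zinc finger genes at 340 of 464, and with loess at 0, 0 and 1.

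Genes of the cytokine pathways shared this pattern. Of 25 receptors and adaptors for TNF, IL-1, OSM and IL-17, 19 were closed with TMM (median -0.33) and 0 with loess, where 1 opened. Of 14 NF-kB subunits and inhibitors 11 were closed (-0.30) and with loess 0, with 1 opened. AP-1 and CEBP factors were closed at 11 of 13 starts (-0.39), with 0 called by loess, and interferon response genes at 18 of 31 (-0.38), with 1 opened and 0 closed by loess.

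Chemokines and the study's IF markers stood higher than the median of all genes. Of 23 chemokine and colony-stimulating factor starts 2 opened and 3 closed with TMM (median -0.13), and with loess 4 opened and 0 closed (0.14). Of 17 IF markers 1 opened (CXCL5) and 2 closed, THY1 and IL1R1 (median -0.12), and with loess 4 opened and 0 closed (0.19). The 4 were CXCL5, CXCL1 (0.39), CXCL3 (0.31) and COL7A1 (0.32), the last 3 of which had TMM changes of 0.03, -0.04 and -0.01. IL6 (-0.32, adjusted p 0.0665) and CXCL8 (0.27, adjusted p 0.319) did not pass. The chemokine and IF lists share genes, so they are not separate observations. The IF list is the study's own, so its direction is no independent evidence. The 5 transcription factors of the IF state in the study had a median of -0.34. At their strongest start peaks, TWIST1 (-0.54, adjusted p 0.000408), GLI3 (-0.39, 0.00609) and RELB (-0.34, 0.0166) were closed with TMM. ETV4 and PRDM1 did not pass, and with loess none of the 5 passed. At the start peaks nearest the canonical starts, 4 of the 5 were closed with TMM (median -0.39) and 0 with loess.

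Of 11 contractile stroma markers 5 were closed with TMM (median -0.28), among them TAGLN and ACTG2, and 0 were called with loess. Of 27 matrix and crosslinking genes 17 were closed (-0.37) and 1 opened with loess. Of 12 fibroblast markers 7 were closed (-0.40), among them COL1A1 (-0.47 with TMM, -0.04 with loess), and 0 were called with loess.

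Lists of genes typical of other cell types did not move alike. Of 399 olfactory receptor genes on autosomes, 100 had a start peak, with a median log2 CPM of -0.06. With TMM 20 opened and 3 closed (median 0.68), and with loess 5 opened and 0 closed (0.43). OR10H1, for example, had values of -0.38 to 0.22 in unstimulated libraries and 0.13 to 1.44 with DMSO, overlapping in range, with a change of 1.21 ± 0.31 (edgeR adjusted p 0.00313). Keratin and keratin-associated genes opened at 12 and closed at 5 of 61 starts (0.31), and with loess at 3 and 1. Immune cell markers opened at 2 of 8 starts and closed at 0, with 4 of 8 below 0 (0.14). S100A8 rose by 1.498 ± 0.31 (adjusted p 0.000316) and CD3D by 2.14 ± 0.48 (adjusted p 0.000835). Their medians in unstimulated libraries were -0.34 and -1.22, and the groups overlapped. Clustered protocadherins, in contrast, closed at 3 of 31 starts and opened at 0 (-0.20). Epithelial markers opened at 1 of 7 starts and closed at 0 (-0.20), endothelial markers closed at 1 of 7 (-0.15) and neural markers were called at 0 of 5 (0.08).

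KRT4 stood out among the keratins. Its start peak (chr12:52814317-52815060) ranged from 2.38 to 2.80 (median 2.48) in unstimulated libraries, from 1.32002 to 2.03 (median 1.70) with DMSO and from 1.95 to 2.91 (median 2.45) with belinostat. The DMSO libraries all lay below the unstimulated ones, and the belinostat range covered the unstimulated range. The change was -0.90 ± 0.18 (edgeR adjusted p 0.00012) in the cytokine contrast and 0.80 ± 0.18 (adjusted p 0.00341) in the belinostat contrast, which share the DMSO libraries, and -0.11 ± 0.17 (adjusted p 0.657) between belinostat and unstimulated cells.

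**Figure D4:**
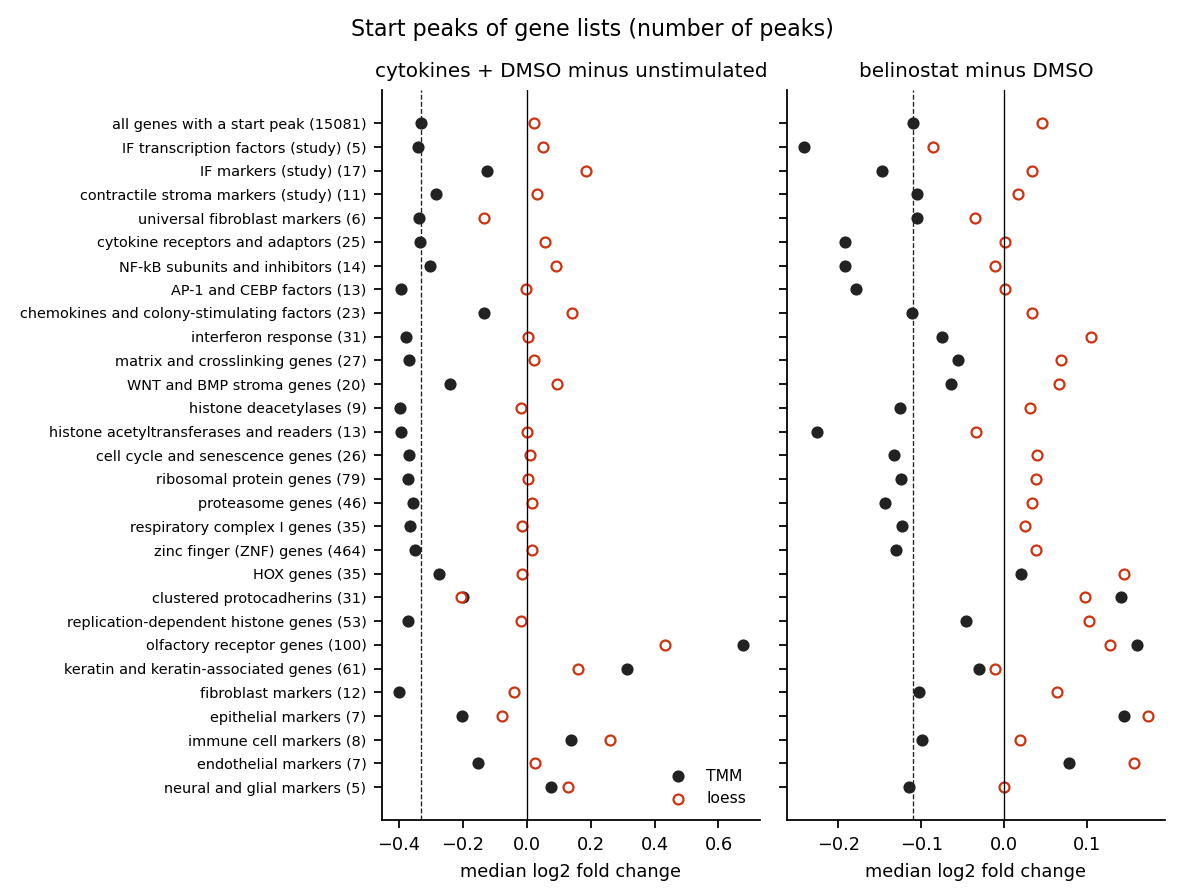
Median log2 fold change (x) of the start peaks of each gene list (y, with the number of peaks) in the cytokine contrast (left) and the belinostat contrast (right), with TMM (filled) and loess offsets (open circles). The dashed line marks the TMM median of all 15081 start peaks of genes, at -0.33 and -0.11, and olfactory receptor genes lie farthest to the right of it in the cytokine contrast, at 0.68. Olfactory receptor start peaks were weak, with a median log2 CPM of -0.06, against 4.04 for all 15081.

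The belinostat contrast asked what the inhibitor changed in cells that had been stimulated. Few start peaks changed. With TMM, 423 were closed (1.09%, against 1.75% of all peaks) and 119 opened (0.31%, against 0.607% of all peaks), with a median log2 fold change of -0.06, against 0.03 for other peaks. With loess offsets 273 were closed (0.70%, against 1.42%) and 463 opened (1.20%, against 1.04%), and with loess and GC offsets 279 were closed (0.72%, against 1.35%) and 340 opened (0.88%, against 1.07%). Opened peaks made up 21.96% of calls with TMM, 62.9% with loess, 54.9% with loess and GC, 39.5% with library totals and 8.99% with TMM over weaker peaks. Without belinostat 1 the closed share was 3.76% and the opened share 0.485%, and without DMSO 3 the closed share was 0.604%. Called alike in all 3 scalings were 243 closed start peaks (0.63%, against 1.33% of other peaks) and 109 opened (0.28%, against 0.55%).

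Strong start peaks were called closed less often than other peaks of the same strength. Between log2 CPM 4 and 5, 1.97% of 5419 start peaks were closed, against 18.5% of 4821 other peaks, and over 5 the shares were 1.69% and 21.4%. With loess offsets they were 1.20% and 14.4%, and 0.73% and 15.8%. Within peaks over log2 CPM 3 and a GC content of 55% to 65%, 1.27% of 5607 start peaks were closed with TMM, against 11.8% of 3091 other peaks. At 45% to 55% GC the shares were 7.96% and 18.3%, and at 45% or less they were 12.5% and 17.2%. Above 65% GC the shares were close, at 0.78% and 1.02%. CpG-poor starts came closer to other peaks, with 9.78% closed between log2 CPM 4 and 5, against 0.46% of CpG-rich starts of that strength. These are shares of peaks in the same libraries and were not tested.

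**Figure D5:**
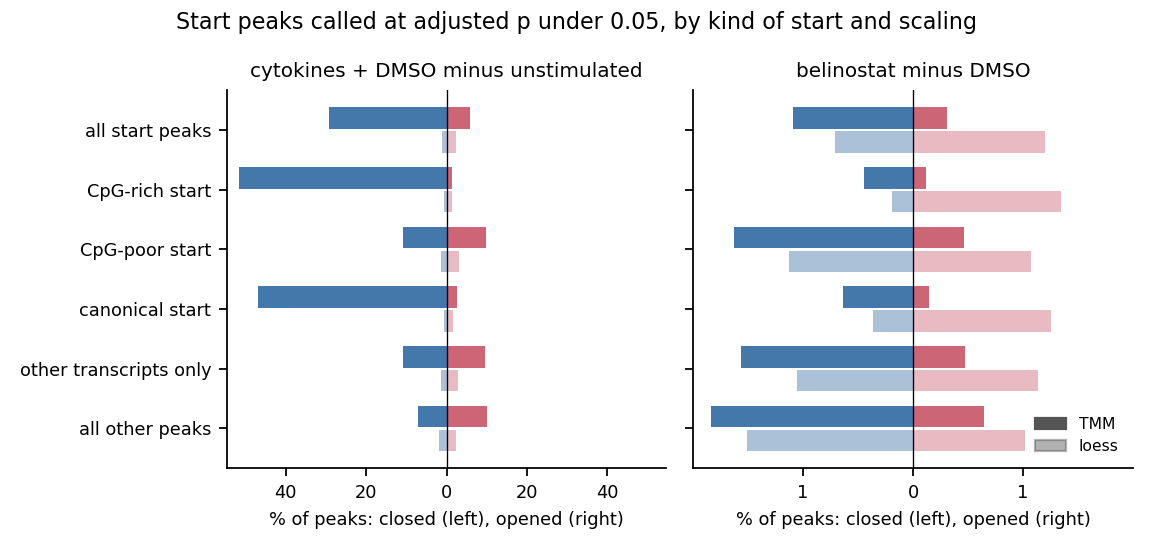
Percent of peaks called closed (to the left of 0) and opened (to the right) at an edgeR adjusted p under 0.05, by kind of start peak and for all other peaks, with TMM (dark) or loess offsets (light), in the cytokine contrast (left) and the belinostat contrast (right), whose axes differ. The closed bar of CpG-rich starts reaches 51.6% in the cytokine contrast with TMM and 0.69% with loess.

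Start peaks that closed with belinostat often carried an AP-1 word, the letters TGANTCA bound by FOS and JUN factors. Within 100 bases of the peak centre, 123 of the 423 closed start peaks held it (29.1%), against 7.77% of all start peaks and 7.56% of the 119 that opened. With loess offsets it was 70 of 273 (25.6%). Among other peaks the word was more common, in 15.0%, and 29.7% of those closed held it. The TEAD word GGAATG showed the reverse, in 27 of the 119 start peaks that opened (22.7%) and 10.2% of those that closed, against 10.6% of all start peaks. Among CpG-poor starts alone, 33.2% of closed peaks held the AP-1 word, against 12.0% of all. The AP-1 word was not alone in this. Of the start peaks closed with belinostat, 16.1% held the CEBP word TTGCNNAA, against 5.98% of all start peaks. The E-box was in 72.3%, against 57.9%, and TATAAA in 8.04%, against 4.54%. Other words were rarer among them, such as GGGCGG in 20.1%, against 31.6%. In the cytokine contrast with TMM, 3.99% of closed start peaks held the AP-1 word and 54.9% a GC box (GGGCGG), against 31.6% of all start peaks. With loess these shares were 8.95% and 22.3%, the latter now below that of all start peaks.

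Among the belinostat falls and rises named by rule, the following held the AP-1 word (PIGT and SRD5A3, which fell) or the TEAD word (GBP6, PLA2G4C and ANO1, which rose) within 100 bases of the peak centre. They are shown on the plus strand of hg38 with 20 bases on each side and the word, as found on either strand, in capitals. Of the other named peaks whose sequence was read, 5 falls held no AP-1 word and 5 rises no TEAD word in that span.
PIGT, chr20:45419838-45419884: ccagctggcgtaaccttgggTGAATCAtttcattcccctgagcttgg
SRD5A3, chr4:55358823-55358869: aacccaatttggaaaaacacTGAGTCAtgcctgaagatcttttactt
GBP6, chr1:89363335-89363380: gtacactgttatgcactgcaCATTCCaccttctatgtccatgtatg
PLA2G4C, chr19:48085221-48085266: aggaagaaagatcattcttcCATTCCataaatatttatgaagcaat
ANO1, chr11:70140867-70140912: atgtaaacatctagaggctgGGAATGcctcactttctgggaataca

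CCL11, among the 8 largest belinostat falls named by rule, fell at its canonical start. It encodes eotaxin, a chemokine for eosinophils. The peak (chr17:34284958-34285884) ranged from 2.62 to 2.82 (median 2.75) in unstimulated libraries, from 2.28 to 2.64 (median 2.34) with DMSO and from 0.09 to 1.93 (median 0.98) with belinostat. Every belinostat library lay below every other library, with a wide spread among them, while DMSO and unstimulated libraries overlapped slightly. The belinostat change was -1.51 ± 0.21 (edgeR adjusted p 3.83e-08, loess -1.42) and passed in 27 of 27 alternative fits. The cytokine change was -0.35 ± 0.16 (adjusted p 0.0942).

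CCL2, a chemokine for monocytes whose gene lies near CCL11, fell less. It ranged from 3.55 to 4.16 (median 3.85) with DMSO and from 2.91 to 3.69 (median 3.30) with belinostat, and the groups overlapped. The change was -0.55 ± 0.13 (adjusted p 0.00557, loess -0.40). Including these, 3 of the 23 chemokine and colony-stimulating factor starts were closed and 0 opened with TMM, and with loess 3 closed and 1 opened, CXCL14 (0.40, adjusted p 0.00069), whose start peak also lies at SLC25A48. Over all starts of genes, 177 of 15081 were closed (1.17%) and 30 opened.

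WWTR1, which encodes TAZ, a coactivator of TEAD factors, showed the largest fall of all named start peaks, at the start of a transcript 45659 bp from the canonical one. Its log2 CPM ranged from 1.38 to 3.14 (median 2.19) with DMSO and from 0.12 to 1.36 (median 0.94) with belinostat, without overlap though the DMSO libraries spread widely. The change was -1.62 ± 0.23 (edgeR adjusted p 9.4e-08). ZCCHC14, a zinc finger protein, fell at its canonical CpG-rich start by 1.51 ± 0.32 (adjusted p 0.000784) from a weak peak with a DMSO mean of 1.14. The falls of ATP5MG, an ATP synthase subunit (-1.51), PIGT, of the complex that attaches GPI anchors (-1.39), NIN, a protein of the centrosome (-1.35), DEFB134, a beta-defensin (-1.33), and SRD5A3, a polyprenol reductase (-1.28), lay at starts of other transcripts. All 8 passed in 27 of 27 alternative fits.

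Among called start peaks of log2 CPM 1 or more without overlap, the largest rise lay upstream of HBB, the beta-globin gene, 2826 bp from its canonical start. Values ran from 0.68 to 1.14 (median 0.97) with DMSO, from 1.85 to 2.91 (median 2.14) with belinostat and from 1.24 to 1.81 (median 1.53) in unstimulated libraries. The 3 groups did not overlap, with belinostat above the others. The change was 1.47 ± 0.21 (edgeR adjusted p 9.61e-08). GBP6, an interferon-inducible GTPase, rose at a peak before its canonical start from a range of 0.13 to 1.04 to one of 1.19 to 2.23 (0.99 ± 0.24, adjusted p 0.00726). SP5, a transcription factor induced by WNT signals, rose at its CpG-rich canonical start from 1.51 to 1.99 with DMSO to 2.03 to 2.69 with belinostat (0.68 ± 0.18, adjusted p 0.0165). RBFOX3 (0.93), DYNC1H1 (0.79), FRMD4A (0.74), PLA2G4C (0.73) and ANO1 (0.72) rose at starts of other transcripts. The rise of ANO1 passed in 16 of 27 alternative fits, that of SP5 in 23, and those of the rest in 25 to 27. With TMM and leaving aside start peaks under log2 CPM 1, 13 called peaks rose and 144 fell without overlap. Of these, 13 and 121 were called in the same direction in all 3 scalings.

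Starts of genes that add or read histone acetylation were looked at because belinostat acts on that mark. Of 13 acetyltransferases and bromodomain readers, 2 were closed by belinostat with TMM and with loess. CREBBP, the acetyltransferase CBP, ranged from 4.03 to 4.51 (median 4.30) in unstimulated libraries, from 3.61 to 3.89 (median 3.75) with DMSO and from 2.65 to 3.58 (median 3.25) with belinostat. The 3 groups stepped down without overlap. The belinostat change was -0.53 ± 0.13 (edgeR adjusted p 0.0101, loess -0.39) and the cytokine change -0.58 ± 0.12 (adjusted p 0.00028), which did not pass with loess (-0.24, adjusted p 0.0836). BRD3, a reader of acetylated histones, had a belinostat change of -0.48 ± 0.12 (adjusted p 0.00609, loess -0.31), and its DMSO and belinostat libraries overlapped. Of 9 histone deacetylase starts 0 were called in the belinostat contrast by either scaling.

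Other listed starts changed singly with belinostat. VCAN, the matrix proteoglycan versican, ranged from 2.39 to 3.05 (median 2.88) with DMSO and from 3.17 to 3.78 (median 3.33) with belinostat, above all DMSO libraries, and rose by 0.62 ± 0.14 (edgeR adjusted p 0.00317, loess 0.74). It was the only one of 27 matrix starts called with TMM, and 3 opened with loess. GREM1, an antagonist of BMPs and a contractile stroma marker of the study, fell from a range of 2.73 to 3.39 to one of 1.95 to 2.61 (-0.61 ± 0.16, adjusted p 0.0148). IL1R1, the IL-1 receptor, fell at a start 72642 bp from its canonical one by 0.43 ± 0.11 (adjusted p 0.0171) and RELB by 0.39 ± 0.11 (adjusted p 0.0369, with loess -0.21 and 0.102). CD68, a lysosomal protein of macrophages also made by fibroblasts, fell by 0.59 ± 0.13 (adjusted p 0.00147). For these 4 the call was lost in 4, 8, 14 and 1 of 27 alternative fits.

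The residual contrast compared belinostat-treated with unstimulated cells, to see what remained of the state before stimulation. With TMM 13966 start peaks were closed (36.1%, against 13.7% of all peaks) and 4025 opened (10.4%, against 16.8%). With loess offsets 854 were closed (2.205%, against 4.13% of all peaks) and 2403 opened (6.20%, against 5.12%), and with loess and GC offsets 1135 were closed (2.93%, against 3.07%) and 1321 opened (3.41%, against 4.47%). Opened peaks were 22.4% of calls with TMM, 73.8% with loess, 53.8% with loess and GC, 54.98% with library totals and 2.42% with TMM over weaker peaks. Under the same limits of strength and overlap, the largest falls were those of ZCCHC14 (-2.04), CCL11 (-1.86), PIGT (-1.74), OAS1, an antiviral enzyme (-1.74), and ALPK2, a kinase (-1.72). The largest rises so chosen were MS4A7 (1.54), CAMK1G (1.46), SLC2A8, a glucose transporter (1.46), PLCD1, a phospholipase C (1.42), and CAPN1, a calpain protease (1.42). All 10 passed in 27 of 27 alternative fits. PTGS2 stayed 0.97 ± 0.13 (adjusted p 4.56e-10) above unstimulated cells, HSD11B1 0.71 ± 0.13 (adjusted p 1.3e-05) and CXCL5 0.85 ± 0.18 (adjusted p 8.43e-05).

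Start peaks of the same gene did not always move together. Of 10053 genes with more than 1 start peak, 731 had both an opened and a closed peak in the cytokine contrast with TMM, 5 in the belinostat contrast and 1409 in the residual contrast. With TMM the median cytokine change of start peaks was 0.50 at or under log2 CPM 0 and -0.37 over 5. Such genes were not counted with loess offsets, and how far the counts follow peak strength was not tested. Start peaks of PPP6R1, a regulatory subunit of protein phosphatase 6, went in opposite directions after cytokines. The peak at the canonical start changed by -0.46 ± 0.16 (edgeR adjusted p 0.0268) and a weak one 10646 bp away by 1.35 ± 0.26 (adjusted p 8.6e-05), and the former did not pass with loess (-0.21, adjusted p 0.414). ADGRD1, an adhesion G protein-coupled receptor, had a peak that closed by -0.77 ± 0.12 (adjusted p 2.4e-06, loess -0.45) and another, 40501 bp from the canonical start, that opened by 0.94 ± 0.24 (adjusted p 0.00298, loess 1.05). In the belinostat contrast WDR1, an actin disassembly factor, had neighbouring peaks at -0.54 ± 0.12 (adjusted p 0.00152) and 0.59 ± 0.15 (adjusted p 0.0138), both called with loess as well (-0.36 and 0.69).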

How the data were processed

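ATAC-seq libraries of Ccd18-Co cells were compared in 3 groups of 6. The authors aligned reads and called peaks with the ENCODE ATAC-seq pipeline and MACS2, and deposited raw counts of fragments per peak, made with csaw, for 334857 peaks (hg38). ChIPseeker 1.34.1 is named in the submitters' notes. Deposited counts summed to 4661678 to 11352032 per library, and this depth limits the precision of weak peaks.

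Start peaks were found against GENCODE 44 with Python 3.11.15, pandas 2.3.3 and pysam 0.24.0. Counts of all peaks were tested with edgeR 4.0.16 (quasi-likelihood, 1 model over all 18 libraries) in R 4.3.3 with limma 3.58.1, and p-values were adjusted over all peaks by Benjamini-Hochberg, with calls at 0.05. The authors scaled by counts in background bins, which were not used here, so TMM over peaks was used. A filter at an average log2 CPM of -3 removed 0 peaks, and log2 CPM carried a prior count of 2. Alternatives were DESeq2 1.42.0, other scalings (loess offsets with a span of 0.3, GC offsets, library totals, TMM over 10 kb bins or over weaker peaks), a stricter filter, other distances to the start, a replicate block, and leaving out each library. Each single peak had 27 alternative fits.

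Peaks were named by rule: of the called start peaks that averaged log2 CPM 1 or more and whose groups did not overlap, the 8 largest rises and falls of the cytokine and belinostat contrasts and 5 of the residual contrast. To these were added the study's marker genes, the 4 genes of each other list with the smallest p, and the 5 highest levels per kb. OR10H1, KRT4, S100A8 and CD3D are such list members, and the pairs of opposite starts were ranked by the size of their difference. Members and lists were chosen with earlier results of these data known. The fits were tested on simulated data.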

Additional observations from a re-analysis of the deposited data

Results flagged for a closer look

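Among 123 groups of 6 libraries examined, 11 held a library set far from the rest by Dixon's criterion at 95%, and chance gives this in about 1 in 20 groups. The share of start peaks with a count of 0 was 4.95% in unstimulated 6 and 2.35% in belinostat 1, each the highest of its group. Unstimulated 6 was also the lowest of its group in log2 CPM at CAMK1G (-1.16) and RPH3AL (-1.16). At RTF1, DMSO 1 was high (1.70) and belinostat 2 low (-0.20). Single libraries stood high at ZCCHC14 (DMSO 4, 1.72), ENSG00000257524 (DMSO 2, 2.40) and DEFB134 (belinostat 3, 0.82), and low at SP5 (unstimulated 3, 1.03) and CFAP221 (DMSO 5, 1.47).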

How the results depend on the processing

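The calls at starts depended on the scaling and on single libraries, and depth limited weak peaks. Among these libraries were unstimulated 1 and 6 in the cytokine contrast and belinostat 1 for peaks closed with belinostat. In the order TMM over the weaker 50% of peaks, library totals, loess, loess with GC, and canonical starts alone, the opened share of start peaks was 1.22%, 10.8%, 2.32%, 1.47% and 2.55% in the cytokine contrast, 0.0413%, 0.725%, 1.20%, 0.878% and 0.148% in the belinostat contrast, and 1.37%, 20.5%, 6.20%, 3.41% and 4.82% in the residual contrast. The closed share was 50.6%, 8.24%, 1.01%, 1.51% and 46.9%, then 0.418%, 1.11%, 0.705%, 0.720% and 0.637%, and last 55.2%, 16.8%, 2.205%, 2.93% and 55.8%. DESeq2 gave 2.99% opened and 19.3% closed after cytokines and 2.15% closed with belinostat. GC offsets alone gave 3.07% and 5.99% opened in the cytokine and residual contrasts and 0.602% closed with belinostat, and a filter at log2 CPM 0 gave 1.64% closed there. The causes were not tested.

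Leaving out 1 library gave 3.47% to 6.83% opened and 17.8% to 33.3% closed after cytokines, 0.168% to 0.485% and 0.604% to 3.76% with belinostat, and 6.85% to 12.0% opened and 31.7% to 38.9% closed in the residual contrast. The share of counts at starts was 35.4%, 32.6% and 31.6% (unstimulated, DMSO, belinostat) with peaks within 500 bp, 45.5%, 42.8% and 42.0% within 3 kb, and 32.1%, 29.2% and 28.3% at canonical starts, and leaving out 1 library it was 38.8% to 39.3%, 35.7% to 36.3% and 34.6% to 35.6%.

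Same-numbered libraries correlated between -0.13 and 0.11 in their deviations, and 1 to 2 of 6 correlated best with their own number. No pairing by number was seen, but correlations over all peaks, many of them weak, cannot exclude one. With a replicate block 6.14% of start peaks were opened and 31.1% closed after cytokines, 0.299% and 1.36% with belinostat, and 10.1% and 36.4% in the residual contrast.

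Of the log2 fold changes of named peaks, 29 changed sign under another scaling and passed in at least 1 of the 2 fits. In the cytokine contrast with loess these were COL7A1 (0.32), CXCL3 (0.31), GLI3 (0.0102), RELB (0.0521), FAS (0.0432), TAGLN (0.0164) and MYLK (0.14, and 0.17 with loess and GC). In the residual contrast with loess they were PDPN (0.14), COL7A1 (0.38), CXCL1 (0.31), CXCL3 (0.50), CXCL2 (0.0125), TNC (0.12), THY1 (0.0544), IL11 (0.17), LMOD1 (0.0939), MYLK (0.0255), TAGLN (0.18) and CD248 (0.0207). With loess and GC they were CXCL3 (0.36), TNC (0.0400), IL11 (0.13), PRDM1 (0.42), MYLK (0.0644), TAGLN (0.0340), DPP4 (0.0337) and CD248 (0.0470), and with library totals CXCL3 (0.30). Of the remaining values 5793 stayed on their side of the threshold, including some with no call in either fit that changed sign, 227 lost the call and 106 gained it.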
